A study of Mus musculus with 9 samples.

Results

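Expression of 10 genes of ER-associated degradation (ERAD) was examined in mouse thigh muscle: Derl1, Derl2, Derl3, Sel1l, Syvn1, Herpud1, Edem1, Edem2, Os9 and Vcp. They were taken as a list of named derlins, parts of the HRD1 ubiquitin ligase complex, EDEM lectins and the p97 ATPase, and every probe set that the platform annotation assigns to them was read, 24 of 45101 on the array. Of these probe sets 21 passed the filter on low values (a log2 value above 5 in at least 3 of the 9 arrays), and all 10 genes had at least 1 that passed, among 9697 genes tested.

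ERAD is the route by which proteins that fail to fold in the endoplasmic reticulum (ER) are recognised, pulled back through the ER membrane and handed to the proteasome in the cytosol. Lectins read the trimmed sugars of a misfolded glycoprotein, a membrane ubiquitin ligase with its adaptors tags and passes it, and an ATPase extracts it. Many of these genes are known targets of the unfolded protein response, in which the transcription factors ATF6 and XBP1 bind short ER stress elements in promoters. Muscle fibres hold a large specialised ER, the sarcoplasmic reticulum, and muscle of myositis patients is known to display class I molecules that healthy fibres largely lack.

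The study overexpressed a self MHC class I protein in skeletal muscle and measured RNA of quadriceps femoris from 9 female mice, 1 array each, in 3 groups of 3. All mice carry the strain label C57Bl/6 HT transgenic, and doxycycline keeps the class I transgene silent. Control mice received doxycycline throughout and were killed at 35 days of age. Early mice came off the drug at 21 days and were also killed at 35 days, so the transgene was on for 2 weeks. Late mice came off the drug at 35 days and, by their labels, reached 50 days of age. The treatment protocol describes the controls as single transgenic littermates, which the strain label does not show, so whether they differ in genotype cannot be told from the labels. The promoter that drives the transgene in muscle is not named in the sources used here. Late mice were older than the controls they are set against, so age and induction cannot be told apart there, and the comparisons with control share the same 3 control arrays. Controls stayed on doxycycline and induced mice came off it. Drug withdrawal and class I induction therefore cannot be told apart in either comparison with control. Replicates are numbered samples with no word on litters or extraction, so a p-value here covers only sample-to-sample spread, part of which may be technical.

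All values are the authors' log2 expression values from GCRMA, and a difference of 1 is a 2-fold change. The levels of different probe sets are not comparable with each other. The 10 skeletal muscle markers checked, among them Acta1 and Ckm, lay above 14 on every array, as the labelled tissue should. H2-K1, the class I gene that checks the induction, read 10.21 to 10.88 in controls, 14.64 to 14.69 in early and 13.11 to 14.31 in late arrays on 1 of its 4 probe sets. On 3 of the 4 every induced array lay above all controls, and on the other the groups overlapped (10.87 to 11.65 in controls, 11.55 to 12.57 in early and 11.35 to 12.29 in late arrays). Class I probe sets can read each other's transcripts. In whole muscle, more cells of a type and more RNA per cell cannot be told apart.

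The promoters of the members are shown first because 3 of the 5 genes called in early mice, Derl3, Syvn1 and Herpud1, hold an exact ER stress element there; Derl2 and Sel1l, also called, do not. RefSeq windows of 300 bases (250 before and 50 after the annotated start, assembly GRCm38.p6) were held for 9 of the 10 genes, 2 windows for Derl2. Both strands were searched for 3 letter patterns without mismatches. The ER stress element ERSE was searched as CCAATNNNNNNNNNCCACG, ERSE-II as ATTGG and CCACG with any 1 base between them, and the core of the unfolded protein response element (UPRE) as TGACGTGG. None of these patterns contains another. In the lines that follow, the 250 bases before the start are printed 5′ to 3′ on the gene's strand, and capitals mark the match.

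Derl3, ERSE in reverse orientation, chr10:75893148-75893397, plus strand: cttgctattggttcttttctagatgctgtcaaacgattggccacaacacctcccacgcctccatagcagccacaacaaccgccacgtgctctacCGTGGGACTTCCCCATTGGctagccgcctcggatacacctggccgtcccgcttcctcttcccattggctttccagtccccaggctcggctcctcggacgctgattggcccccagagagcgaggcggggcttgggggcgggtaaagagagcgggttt
Syvn1, ERSE in forward orientation, chr19:6046326-6046575, plus strand: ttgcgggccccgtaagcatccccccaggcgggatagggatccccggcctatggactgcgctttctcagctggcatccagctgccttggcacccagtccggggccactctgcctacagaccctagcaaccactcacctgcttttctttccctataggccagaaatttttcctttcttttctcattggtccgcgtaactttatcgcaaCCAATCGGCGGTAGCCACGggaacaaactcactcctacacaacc
Herpud1, ERSE-II in forward orientation, chr8:94386179-94386428, plus strand: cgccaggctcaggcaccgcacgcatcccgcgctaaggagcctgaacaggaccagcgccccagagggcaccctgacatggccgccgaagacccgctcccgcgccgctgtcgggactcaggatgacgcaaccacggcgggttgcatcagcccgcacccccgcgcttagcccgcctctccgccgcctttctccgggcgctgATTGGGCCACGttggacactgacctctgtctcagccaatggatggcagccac
Vcp, UPRE core in forward orientation, chr4:43000508-43000757, minus strand: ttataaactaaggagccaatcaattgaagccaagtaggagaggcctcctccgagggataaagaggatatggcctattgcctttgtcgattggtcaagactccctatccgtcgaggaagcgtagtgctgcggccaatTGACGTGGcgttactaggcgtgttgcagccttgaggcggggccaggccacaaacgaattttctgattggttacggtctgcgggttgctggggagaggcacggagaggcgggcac

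The Derl3 element lay 156 to 138 bases before the start, the Syvn1 element 44 to 26 bases before it and the Herpud1 element 52 to 42 bases before it. The Vcp match lay 114 to 107 bases before its start. Of 32851 windows of this length in the table, 0.119% held an ERSE, 0.0365% an ERSE-II and 0.676% the UPRE core. The windows of Derl2, Sel1l, Edem1, Edem2 and Os9 held none of these letters. A match is a description of the sequence and was not tested as a binding site.

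The early comparison addresses muscle that began to express class I at a young age, with control mice of equal age. In early muscle 5 of the 10 ERAD genes rose (Derl2, Derl3, Sel1l, Syvn1 and Herpud1), 0 fell and 5 did not pass, at an adjusted p under 0.05 in limma over all genes. The background was 0.928% of all 9697 genes called higher in this comparison and 0.258% called lower. All 10 differences were positive, with a median of 1.12 (log2), where the median over all genes tested was -0.03 and 45.9% of genes had a positive difference. For 7 of the 10 genes every early array lay above every control array, against 9.63% of all genes. The calls depended on single arrays: without control 1, 2 or 3, or without early 2, Derl3 alone was called. Derl3 passed the filter only through its early arrays, and these fits kept the genes chosen on all 9 arrays. The sizes moved little in these fits; leaving out each array in turn gave 1.77 to 2.39 for Syvn1 and 1.55 to 2.06 for Herpud1. Without early 3 the count was 7, with Edem1 and Os9 added, and without late 2 it was 4, with Syvn1 lost.

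**Figure D1:**
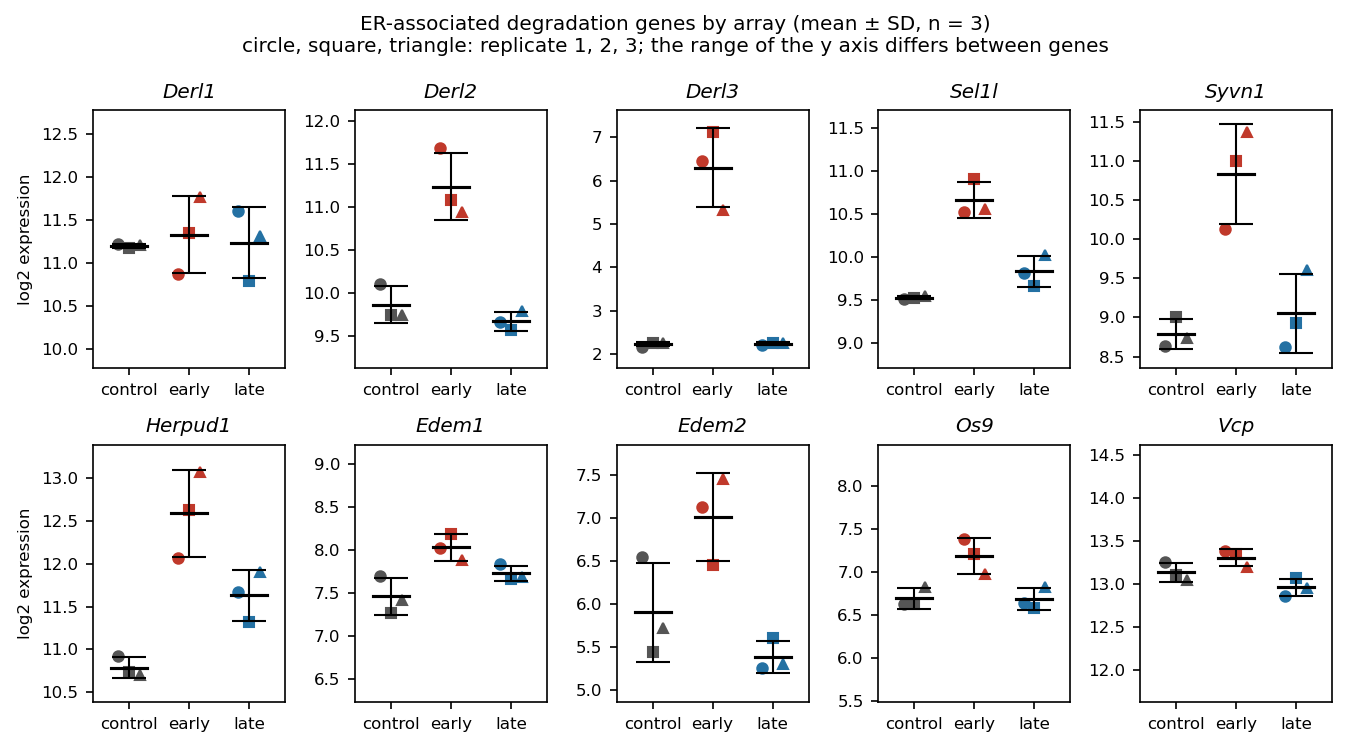
Log2 expression of the 10 ERAD genes (1 probe set per gene) in the 3 control, 3 early and 3 late arrays; points are arrays, bars the mean ± SD, and each y axis has its own range. The early arrays of Derl2, Derl3, Sel1l, Syvn1 and Herpud1 stand clear of the controls, while Derl1 and Vcp overlap them.

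Syvn1 encodes HRD1, the membrane ubiquitin ligase at the centre of the complex. Its level was 8.63, 9.0 and 8.73 in control 1, 2 and 3, 10.13, 10.99 and 11.37 in early 1, 2 and 3, and 8.63, 8.92 and 9.61 in late 1, 2 and 3. All early arrays were above all others, and the late arrays overlapped the controls. Syvn1 rose 4.12-fold in early mice (2.04 ± 0.34 SE, adjusted p = 0.0314 in limma). The second probe set of the gene gave 2.15 ± 0.34 (adjusted p = 0.0291 over all probe sets).

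Sel1l is the adaptor that holds HRD1 in place and brings substrates to it. It read 9.51, 9.52 and 9.54 in controls, 10.52, 10.90 and 10.55 in early and 9.80, 9.66 and 10.02 in late arrays. The 3 groups did not overlap at all, in the order control, late, early. Sel1l rose 2.20-fold in early mice (1.14 ± 0.15, adjusted p = 0.0139 in limma). Its 3 other passing probe sets gave early differences of 1.20, 1.42 and 1.42, and in each of them the early arrays lay above all controls. Late and control arrays overlapped on both probe sets that gave 1.42. A dim probe set of Sel1l (control mean 2.61) did not pass the filter and read 4.29, 3.39 and 3.29 in early arrays.

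Herpud1, a stress-induced membrane protein that assembles with HRD1 and the derlins, was the member with the clearest intermediate level in late mice. It stood at 10.93, 10.74 and 10.71 in controls, 12.06, 12.63 and 13.06 in early and 11.67, 11.32 and 11.90 in late arrays. Here too no group overlapped another. Herpud1 rose 3.47-fold in early mice (1.79 ± 0.26, adjusted p = 0.0158 in limma). In late mice it differed by 0.84 ± 0.26, which did not pass (adjusted p = 0.171; unadjusted p = 0.00959). The second probe set gave 1.95 in early and 0.73 in late mice, with the same lack of overlap.

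The derlins are membrane proteins thought to form part of the passage out of the ER, and the 3 genes did not read alike. Derl3, the member with restricted expression that is known from secretory tissues, was near the bottom of the scale in control (2.17, 2.25 and 2.26) and late arrays (2.21, 2.25 and 2.26). In early arrays it read 6.45, 7.13 and 5.32. Every early array was above the floor of 5 and all 6 others were far below it. The fitted early difference was 4.07 ± 0.37 (adjusted p = 0.00352 in limma), but GCRMA compresses dim values, so its size is uncertain. Counted from the floor, Derl3 rose at least 2.46-fold (1.30 on the log2 scale). Derl3 passed the filter only through its early arrays, so its call is not independent of that choice. It was called in each alternative that tested it. A floor of 6 left it out, and so did dropping probe sets marked as shared by their name, which removed its only probe set. The fits without 1 array kept the genes chosen on all 9 arrays.

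Derl3 is also a gene of antibody-secreting cells, so markers of plasma and B cells were read beside it. Of 12 markers on the array 3 passed the filter: Ighm, Sdc1 and Xbp1, the last of which is itself a gene of the unfolded protein response. Jchain, Mzb1, Cd79a, Cd79b, Ms4a1, Tnfrsf17, Pou2af1, Prdm1 and Irf4 were under the floor in every control and early array. Jchain rose above it on 1 array, late 1 (6.41), on which Derl3 read 2.21. Ighm read 6.05, 7.12 and 10.92 in early 1, 2 and 3, against 10.51 to 11.13 in controls. Sdc1, a surface proteoglycan of plasma cells and epithelia, read 6.84, 7.37 and 6.35 in early 1, 2 and 3, against 6.75 to 6.79 in controls, so its order over the early arrays was that of Derl3. The log2 of the summed marker level was 11.99 to 12.29 in controls, 11.99 to 13.09 in early and 11.48 to 13.21 in late arrays. In early arrays most of this sum was Xbp1, which read 11.90, 12.71 and 12.70 in early 1, 2 and 3. Xbp1 read 10.84 to 11.34 in controls, so the sum does not measure plasma and B cells alone. The part of such cells in the Derl3 values was not tested.

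Derl2 is the broadly expressed derlin with the larger difference. It read 10.11, 9.74 and 9.75 in controls, 11.68, 11.09 and 10.94 in early and 9.66, 9.57 and 9.79 in late arrays. Early arrays stood apart from both other groups, which overlapped. Derl2 rose 2.59-fold (1.37 ± 0.21, adjusted p = 0.022 in limma), and its second probe set gave 1.0 ± 0.22 without passing (adjusted p = 0.083 over all probe sets).

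Derl1, the other broad derlin, depended on which probe set was read. Its brightest probe set, taken for the gene, read 11.21, 11.17 and 11.21 in controls, 10.87, 11.35 and 11.76 in early and 11.60, 10.79 and 11.31 in late arrays. Controls were almost identical while both induced groups scattered around them, and the difference of 0.13 ± 0.26 did not pass (adjusted p = 0.814 in limma). On another of its 4 probe sets the gene read 9.28, 9.05 and 9.09 in controls, 10.70, 10.21 and 9.73 in early and 8.35, 8.62 and 8.99 in late arrays. There the early arrays were the highest and the late arrays the lowest, with no overlap, and the early difference was 1.07 ± 0.26 (adjusted p = 0.11 over all probe sets). The remaining probe sets gave 0.68 ± 0.17 and 0.29 ± 0.26, and neither passed. The early level of Derl1 is therefore not settled by these probe sets.

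Across the 21 passing probe sets of the members, 8 were called higher in early mice and 0 lower, against 0.879% of 16048 probe sets called higher. All 21 differences were positive, and for 16 of them the early arrays lay wholly above the controls, against 9.20% of all probe sets. The probe sets of Sel1l, Syvn1 and Herpud1 gave similar sizes within a gene, whereas those of Derl1 and Edem1 spread. Of the 3 probe sets that failed the filter, the Sel1l probe set differed by 1.05, that of Edem2 by -0.04 and that of Os9 by -0.07, all with group means under the floor.

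**Figure D2:**
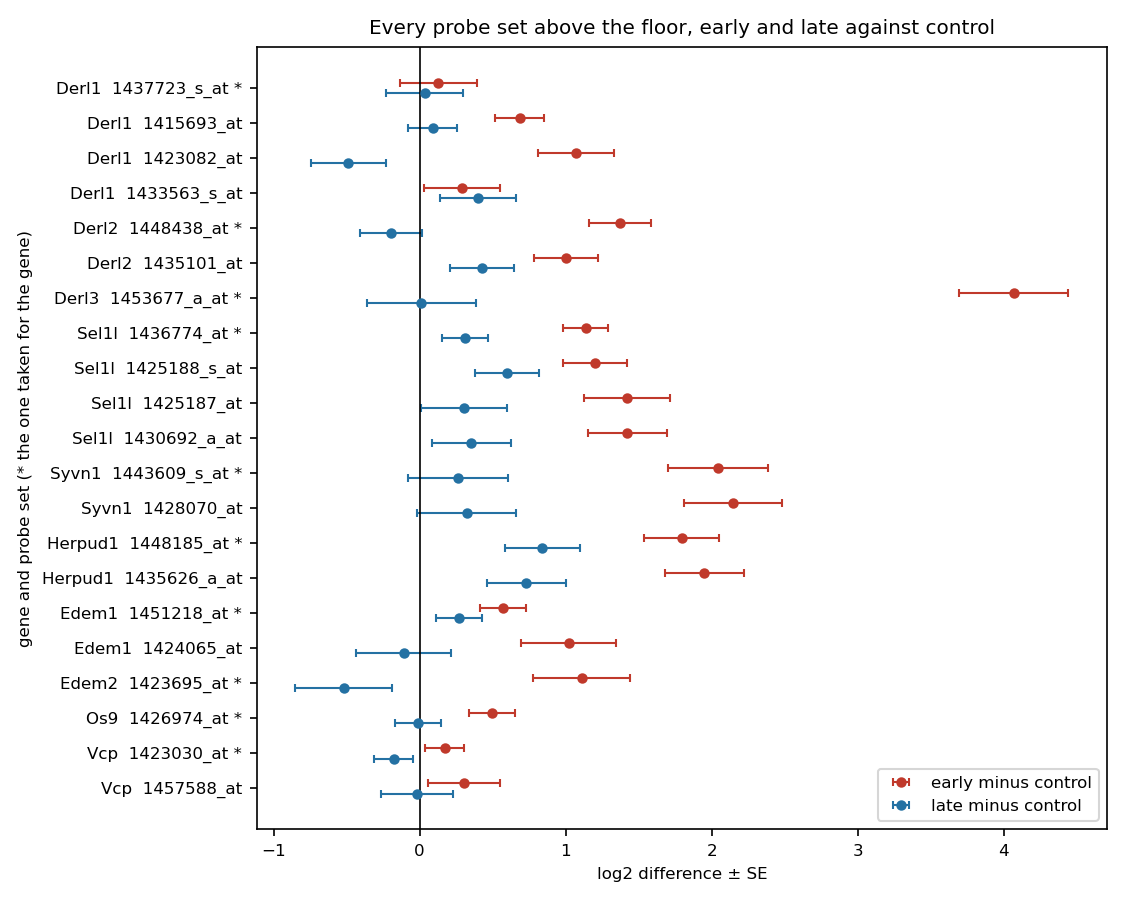
Log2 differences from control with their SE for the 21 passing probe sets, early in red and late in blue; an asterisk marks the probe set taken for the gene. All early points are above 0, from 0.13 for the brightest Derl1 probe set to 4.07 for Derl3, while late points lie on both sides of 0.

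None of the 3 genes that recognise substrates passed in early mice. At an unadjusted p under 0.05 in limma there were 8 of the 10 members in all, against 18.5% of all genes. Edem1, which is known to draw misfolded glycoproteins out of the folding cycle, read 7.69, 7.26 and 7.42 in controls, 8.02, 8.19 and 7.88 in early and 7.83, 7.66 and 7.69 in late arrays. Early arrays were the highest, by a small margin. The difference of 0.57 ± 0.15 (1.48-fold) did not pass (adjusted p = 0.134 in limma). On its other probe set early 1 and 2 read 8.01 and 7.96 but early 3 read 6.65, close to the controls at 6.44 to 6.61.

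Edem2, a mannosidase that starts the trimming of sugars on ERAD substrates, read 6.55, 5.44 and 5.72 in controls, 7.13, 6.46 and 7.46 in early and 5.25, 5.60 and 5.30 in late arrays. Control 1 was high and overlapped the lowest early array. The early difference was 1.11 ± 0.33 and did not pass (adjusted p = 0.154 in limma).

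Os9, an ER lectin that delivers trimmed glycoproteins to SEL1L, read 6.63, 6.62 and 6.83 in controls, 7.39, 7.21 and 6.97 in early and 6.65, 6.58 and 6.82 in late arrays. The early arrays were above all others and the late arrays matched the controls within their spread. The early difference of 0.50 ± 0.15 did not pass (adjusted p = 0.162 in limma).

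Vcp, the p97 ATPase that extracts ubiquitin-tagged proteins from the membrane and works in many other pathways, read 13.26, 13.10 and 13.05 in controls, 13.38, 13.35 and 13.20 in early and 12.86, 13.07 and 12.96 in late arrays. Early and control arrays overlapped, and the difference of 0.17 ± 0.13 (1.13-fold) did not pass (adjusted p = 0.492 in limma). Vcp read high on this probe set, though below Acta1 (control mean 15.94), and whether saturation narrowed its difference was not tested. Its second probe set, with a control mean of 7.88, gave 0.30 ± 0.25 and did not pass (adjusted p = 0.547 in limma over all probe sets).

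The early arrays were alike in the members' median but differed in which genes were highest. The median of the 10 members over the control mean was 1.11, 0.97 and 1.06 in early 1, 2 and 3. Derl2, Os9 and Vcp were highest in early 1, Derl3, Sel1l and Edem1 in early 2, and Syvn1, Herpud1, Edem2 and Derl1 in early 3. Macrophage markers moved differently over the same arrays. The log2 of the summed level of 11 macrophage markers, 10 of which passed the filter, was 14.19, 13.52 and 12.26 in early 1, 2 and 3, against 12.39 to 12.71 in controls and 11.96 to 12.56 in late arrays. The markers did not move alike. Cd68 read 12.06, 11.17 and 6.23 in early 1, 2 and 3, against 6.74 to 7.90 in controls. Lgals3 read 12.81, 11.69 and 7.45, against 7.27 to 8.22. Mrc1 read 9.56, 9.82 and 9.73, against 9.73 to 10.25, and Cd163 8.27, 7.89 and 7.95, against 8.11 to 8.33. Early 3, with the lowest macrophage sum of the early arrays, had the highest Syvn1 and Herpud1, while early 1, with the highest sum, had the highest Derl2. The part of macrophages in these values was not tested. The sum of 6 fibroblast markers was 16.11 to 16.47 in early, 16.26 to 16.57 in control and 15.70 to 16.06 in late arrays, the late arrays lying below all controls.

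**Figure D3:**
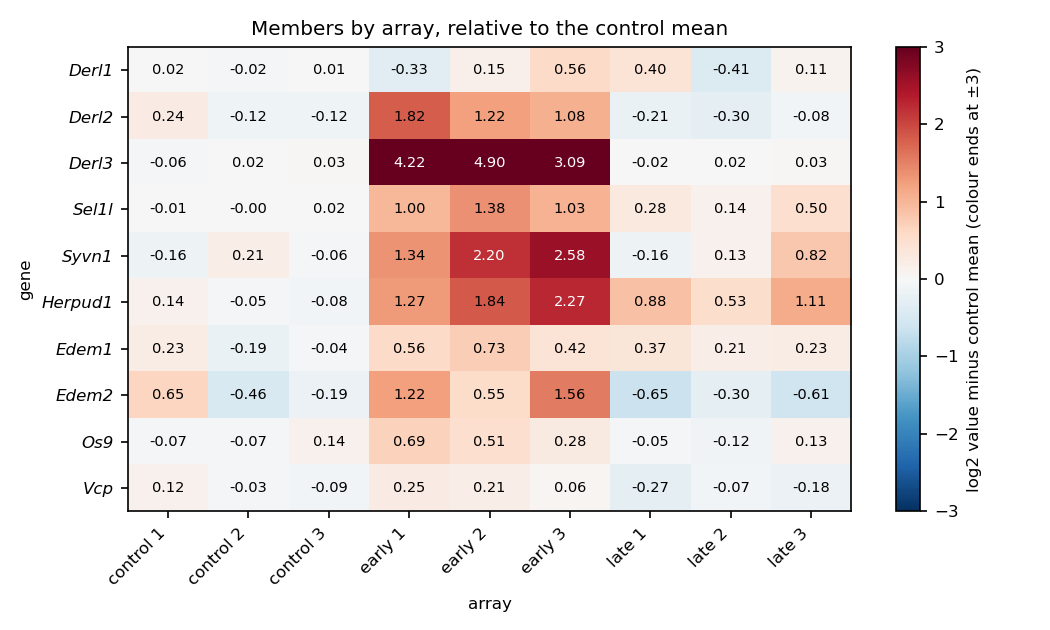
Each member's log2 value minus its control mean in the 9 arrays; red is above and blue below the control mean, and the number is printed in each cell. The early columns are red for all members but Derl1 in early 1 (-0.33), and the late columns hold values from -0.65 to 1.11, the highest for Herpud1 (0.53 to 1.11) and the lowest for Edem2 (-0.65 to -0.30).

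The late comparison addresses class I expression that began in older mice, and since its controls were younger each value holds age as well. Here 0 of the 10 genes passed in limma, against 0.0928% of genes called higher and 0.113% called lower (9 and 11 genes, or 7 and 18 with arrays centred on their medians). At an unadjusted p under 0.05 there was 1 member, Herpud1, against 17.3% of all genes, and array weights called the same gene. The members' median was 0.02, with 6 positive and 4 negative differences, where the median of all genes was 0.01 and 51.2% of genes were positive. Late arrays lay wholly above the controls for 2 members, Herpud1 and Sel1l (0.31 ± 0.15), against 16.0% of all genes, so this share of the members was close to the background. Late Syvn1 differed by 0.26 ± 0.34, Edem1 by 0.27 ± 0.15, Derl3 by 0.01 ± 0.37 and Derl1 by 0.03 ± 0.26. The negative values were -0.52 ± 0.33 for Edem2, -0.19 ± 0.21 for Derl2, -0.18 ± 0.13 for Vcp and -0.01 ± 0.15 for Os9. Of the 21 probe sets 0 passed, against 0.0935% of all probe sets called higher. In 4 of them, the 2 of Herpud1 and 2 of Sel1l, the late arrays lay wholly above the controls (16.0% of all probe sets), and in 1, of Derl1, wholly below (14.3%).

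The early and late arrays were also compared directly, with both ages differing between the groups. Early mice were higher for 6 members (Derl2, Derl3, Sel1l, Syvn1, Herpud1 and Edem2) and lower for 0, against 5.31% of genes called higher and 6.23% called lower. All 10 differences were positive, where 47.0% of all genes were. The early arrays lay wholly above the late arrays for 9 members, Derl1 being the exception, against 13.7% of genes. Derl2 was 2.96-fold higher (1.57 ± 0.21, adjusted p = 0.00742 in limma) and Edem2 3.10-fold higher (1.63 ± 0.33, adjusted p = 0.0243). Edem2 thus passed here though neither group passed against controls, whose first array was high. Syvn1 differed by 1.78 ± 0.34 (adjusted p = 0.0218), Sel1l by 0.83 ± 0.15 (adjusted p = 0.0198) and Derl3 by 4.06 ± 0.37, or at least 1.30 from the floor. Herpud1, at 0.95 ± 0.26, passed narrowly (adjusted p = 0.0462 in limma) and was called in 7 of 18 alternatives. It did not pass with the replicate number as a block (adjusted p = 0.0525), without a filter or with arrays centred on their medians. Os9 (0.51 ± 0.15, adjusted p = 0.0597), Vcp (0.35 ± 0.13, adjusted p = 0.1), Edem1 (0.30 ± 0.15) and Derl1 (0.10 ± 0.26) did not pass. For Derl1 the probe sets differed here too: another of them gave 1.56 ± 0.26 without overlap (adjusted p = 0.0163 over all probe sets), and the mean of its passing probe sets was also called. Among the probe sets 11 of 21 were higher, against 5.15% of all, and 18 lay wholly above the late arrays, against 14.1%. The count of members fell to 2, Derl2 and Derl3, without late 1 or late 2, to 3 without early 2, and to Derl3 alone when only the early and late arrays were fitted.

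The order of the groups differed by member. Early was highest for 10 of 10 by the mean. For Herpud1 and Sel1l, on the probe set taken for each gene, the late level lay between control and early with no array overlapping. On some other Sel1l probe sets late and control arrays overlapped. For Derl2, Derl3, Os9 and Syvn1 late and control arrays overlapped below early. For Edem1 the late and control arrays overlapped below early by a narrow gap, for Vcp and Edem2 the control arrays overlapped both other groups, and for Derl1 all groups overlapped on the brightest probe set but not on the other just described.

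Other genes of the pathway were read from a second list. The list of other ERAD genes had 72 genes named on the array, of which 68 were tested. It held ligases, ubiquitin-conjugating enzymes, p97 cofactors, mannosidases, deubiquitinases and shuttle factors, besides folding genes such as Uggt1, Calr and Canx. Calr, Canx and Dnajc10 are also in the list of ER chaperones, so these lists overlap. In early mice 3 rose, 0 fell and 65 did not pass, against 0.928% of all genes called higher and 0.258% called lower. The median was 0.16, with 43 positive values, where 45.9% of all genes were positive. Early arrays lay wholly above controls for 17 genes and wholly below for 3, against 9.63% and 13.9% of all genes. The 3 genes that rose act on folding before degradation: Uggt1, which senses unfolded glycoproteins (1.43 ± 0.16, adjusted p = 0.0075 in limma), and the lectin chaperones Calr (1.47 ± 0.25, adjusted p = 0.0356) and Canx (1.02 ± 0.15, adjusted p = 0.0192). Uggt1 read 7.33, 7.21 and 7.23 in controls and 8.82, 8.82 and 8.41 in early arrays. This count ranged from 0 without control 2 or 3 to 18 without early 3.

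Of the list's genes that did not pass, those with the smallest p in early mice were Txndc11, an EDEM-associated redox protein (0.98 ± 0.21, adjusted p = 0.0767), Ube2g2, a ubiquitin-conjugating enzyme of ERAD (1.03 ± 0.25), Erlec1, a lectin related to OS9 (0.59 ± 0.15), and Selenok, a selenoprotein bound to derlins (1.15 ± 0.30). Ubxn4, a p97 cofactor in the ER membrane, differed by 1.51 ± 0.49, with early 1 at 13.05 and the other early arrays at 11.44 and 11.81 against controls at 10.02 to 11.30.

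In late mice 0 of 68 passed, with a median of 0.10. The smallest p-values there belonged to Rnf139, a membrane ligase (0.52 ± 0.14, adjusted p = 0.136), Faf1, a p97 cofactor (0.80 ± 0.21), Fam8a1, a partner of HRD1 (0.59 ± 0.17), and Jkamp, a membrane protein that recruits proteasomes (-0.56 ± 0.17). At an unadjusted p under 0.05 there were 14 of these genes, where 17.3% of all genes were, a share near theirs.

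Early against late, 10 of the 68 were higher and 5 lower, where 5.31% of all genes were higher and 6.23% lower, so the lower share was near the background. The higher genes were Uggt1, Calr, Canx, Get4, which serves the insertion of tail-anchored proteins (2.04 ± 0.36, adjusted p = 0.0181 in limma), Ube2g2 (1.21 ± 0.25), Ubxn4 (1.96 ± 0.49), Selenok (1.13 ± 0.30), Stub1 (0.72 ± 0.19), Ubxn1 (0.71 ± 0.16) and Bcap31 (0.54 ± 0.14). The lower genes held 3 membrane ligases, Marchf6 (-0.84 ± 0.19), Rnf139 (-0.66 ± 0.14) and Rnf103 (-0.50 ± 0.13), besides Ubqln4, a shuttle factor (-0.86 ± 0.20), and Man1a2, a Golgi mannosidase (-0.79 ± 0.15, adjusted p = 0.0198). Marchf6 read 11.49, 11.69 and 12.17 in early and 12.77, 12.44 and 12.65 in late arrays. The count was 0 when only early and late arrays were fitted and ranged from 1 to 31 on leaving out each array, 1 without early 2 or late 2.

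**Figure D4:**
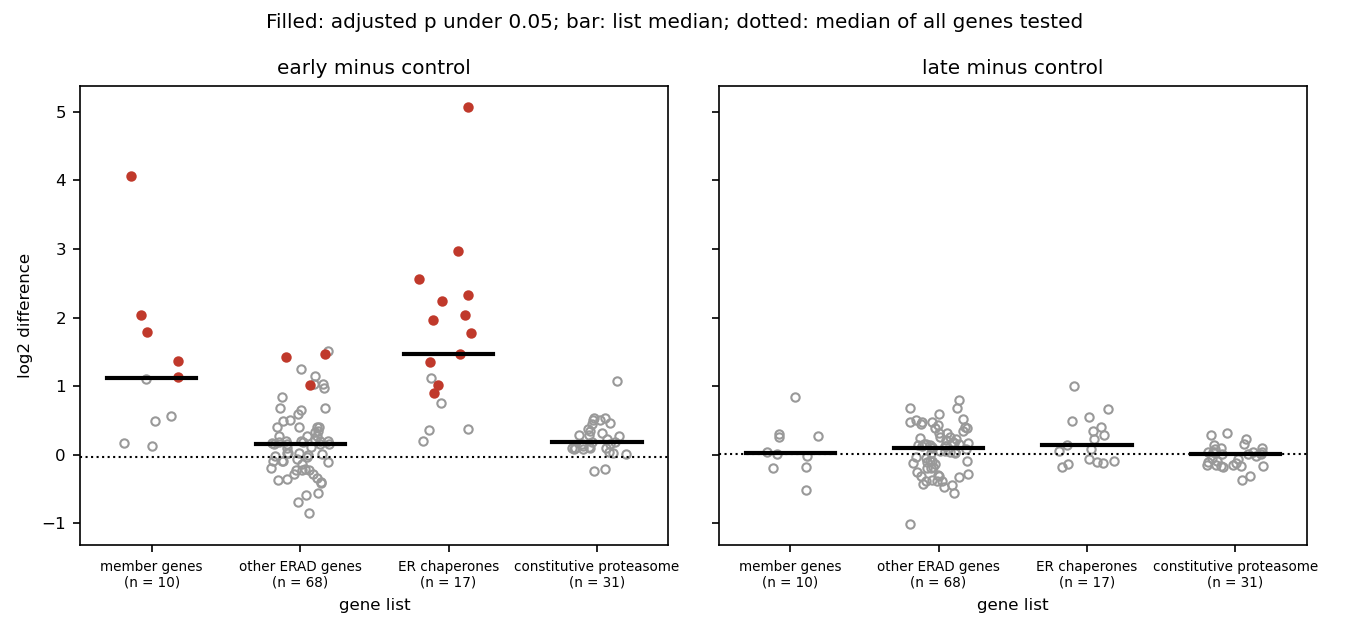
Log2 differences of single genes in 4 lists, early against control and late against control; filled red points passed at an adjusted p under 0.05, bars are list medians and the dotted line is the median of all genes tested. In early mice the members' median is 1.12 and that of other ERAD genes 0.16, beside ER chaperones at 1.47 and proteasome subunits at 0.18. In late mice all medians lie between 0.01 and 0.14. Calr, Canx and Dnajc10 are drawn in both the other ERAD and the ER chaperone lists.

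The genes whose pattern over the 9 arrays was most like the mean of the 10 members were Creld2, an ER stress-induced protein (Pearson r = 0.996), Nucb2, a calcium-binding protein (0.993), Spcs3, a subunit of the signal peptidase (0.989), Pdia6, a disulfide isomerase (0.983), and Mrps18b, of the mitochondrial ribosome (0.979). These correlations describe 9 arrays in 3 groups and rest mostly on the early group standing apart. Spcs3 differed by 1.62 ± 0.17 in early and 0.27 ± 0.17 in late mice, and Nucb2 by 1.42 ± 0.15 and 0.09 ± 0.15.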

How the data were processed

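Total RNA of 9 muscles was hybridised to Affymetrix arrays, 1 per sample. The values used are the authors' log2 expression per probe set, made with GCRMA per the submitters' processing notes, with version and settings not given in the sources used here. GCRMA makes array distributions alike, so a shift of all genes would not show, and it narrows the spread of dim probe sets. Array medians lay between 3.41 and 3.45, and precision is limited by 3 arrays per group.

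Gene names came from the platform annotation: of 45101 probe sets, 34958 name 1 gene, 932 several and 9211 none. Those naming 1 gene with a log2 value above 5 in at least 3 arrays were kept (16048), and the brightest per gene was taken (9697 genes). Limma 3.58.1 in R 4.3.3 (lmFit and eBayes) fitted 3 group means to all 9 arrays, with 6 residual and 2.84 prior degrees of freedom. P-values were adjusted by Benjamini-Hochberg over all genes, or over all passing probe sets for the probe set values. The fit was tested on simulated data. No exact permutation test was made, since 3 arrays against 3 can reach p = 0.1 at the lowest.

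The members and gene lists were chosen with earlier results of these data known. Named outside the members were genes of the other ERAD list that passed or had the 4 smallest p-values per comparison, up to 4 called genes of each context list, and the 5 genes most correlated with the members' mean; Ubxn4 in early mice and, in the closing observations, the genes with promoter elements and the stress sensors that did not pass were named beyond this, after their values were seen. Replicate numbers were checked for pairing by correlating deviations from group means. The correlations were 0.168, 0.201 and 0.16 for early and late arrays, all over the 0.1 used as a cut, so a pairing of these groups was treated as possible. The labels name no such pairing, and these low correlations do not establish it. The values printed come from the fit without the block, and the blocked value is given where a call changes. The correlations were 0.35, 0.11 and -0.0391 for early and control and 0.0847, -0.165 and -0.11 for late and control, not all over the cut in either. Alternatives were other filters, probe set choices, array centring, a variance trend, array weights, a replicate block, fits of 2 groups and leaving out each array.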

Additional observations from a re-analysis of the deposited data

Results flagged for a closer look

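The early and late differences from control differed for 6 members by the direct test of early against late arrays in limma: Derl3 (4.06), Derl2 (1.57), Syvn1 (1.78), Edem2 (1.63), Herpud1 (0.95) and Sel1l (0.83), all on the log2 scale and higher in 3 of 3 early arrays. The Herpud1 call was narrow and held in 7 of 18 alternatives. Vcp was also marked, since all early arrays lay above the control mean and all late arrays below it. The early against late difference of Vcp was 0.35 and did not pass (adjusted p = 0.1). For Derl2 and Edem2 the late arrays were likewise all under the control mean. Late mice have no controls of their own age, so these differences hold age as well as the time of induction.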

How the results depend on the processing

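Called early differences kept their direction under all alternatives that tested the gene, 16 for Derl3 and 18 for Derl2, Sel1l, Syvn1 and Herpud1, and no called result reversed. Counts moved more. Early against control, all genes called were 115, and 56 without a filter, 61 with 2 groups, 62 with the replicate block, 3335 with array weights and 6 to 1756 on leaving out each array. Members called were 5, and 2 without a filter, 3 with 2 groups, 8 with weights and 1 to 7 on leaving out each array. Member probe sets called fell from 8 to 2 without a filter, and other ERAD genes went from 3 to 33 with weights and 0 to 18 on leaving out each array. Late against control, all genes were 20, and 5 with the block, 12 with 2 groups, 1037 with weights and 5 to 59 on leaving out each array; members were 1 and other ERAD genes 9 with weights, and 0 on leaving out each array. Early against late, all genes were 1119, and 584 without a filter, 38 with 2 groups, 3534 with weights and 143 to 2959 on leaving out each array. Members there were 6, and 1 with 2 groups and 2 to 7 on leaving out each array. Member probe sets fell from 11 to 4 without a filter. Other ERAD genes were 15, and 9 without shared probe sets, 34 with weights, 0 with 2 groups and 1 to 31 on leaving out each array. Fewer arrays or more genes tested can lower the counts, but leaving out 1 array also raised them. Without early 3, early against control, 1756 genes were called, and the reason was not tested. The fit of array weights stopped before converging, and the cause of its high counts was not tested. Pairing by the block changed no other member call than Herpud1 early against late. Signal near the floor limits Derl3 and the dim probe sets.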

Other observations

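Genes with an exact ER stress element in the promoter window were also read beyond the members. The ERSE letters occurred in windows of 37 genes, of which 15 were tested. In early mice 10 of these 15 were called higher and 0 lower, against 0.928% of all genes, with a median difference of 1.62: Creld2, Hspa5, Hsp90b1, Pdia6, Calr, Canx, Alg12, Ero1b, Derl3 and Syvn1. The 5 that did not pass were Dnajc3 (1.12 ± 0.41), Acacb (-0.21 ± 0.18), Adcy3 (-0.06 ± 0.27), Pan2 (-0.17 ± 0.17) and Spats2l (-0.35 ± 0.23). For ERSE-II 8 genes were tested and 2 were called higher, Herpud1 and Dnajb11 (2.04 ± 0.22). For the UPRE core 7 of 88 tested genes were called higher (7.95%), with a median of 0.17. In late mice 0 genes of any of these groups were called, with medians of 0.23, 0.25 and 0.13. These counts were made after the members' promoters had been seen, and the lists were given no test.

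Of 13 genes that sense or transmit ER stress, 1 rose in early mice, Creb3, a membrane-bound transcription factor (1.60 ± 0.29, adjusted p = 0.0394 in limma), 0 fell and 12 did not pass. Over all genes, 0.928% were called higher and 0.258% lower in this comparison. Xbp1, the transcription factor that drives many ERAD genes, differed by 1.28 ± 0.29 (adjusted p = 0.0896) and read 11.90, 12.71 and 12.70 in early against 10.84, 11.28 and 11.34 in control arrays. Ddit3, a stress-induced factor linked to cell death, differed by 0.84 ± 0.23 (adjusted p = 0.139). Before adjustment, 10 of the 13 had p under 0.05 in limma in early mice, against 18.5% of all genes, and the median was 0.57. Early arrays lay wholly above controls for 8 of the 13 and wholly below for 1, against 9.63% and 13.9% of all genes. In late mice 0 of 13 passed in limma (4 had an unadjusted p under 0.05, as had 17.3% of all genes). Atf6 differed by 0.81 ± 0.18 in late and 0.57 ± 0.18 in early mice, and Ern1 by 0.73 ± 0.20 and 0.54 ± 0.20. For both genes the late and the early arrays lay wholly above controls and overlapped each other. Of 31 constitutive proteasome subunits, which take up what ERAD delivers, 0 passed in early mice. Of their differences 29 were positive (median 0.18), where 45.9% of all genes were. Of the 31 subunits 3 had an unadjusted p under 0.05, against 18.5% of all genes. Of 17 ER chaperones, 12 rose and 0 fell in early mice, against 0.928% of all genes called higher and 0.258% called lower. Among the 12 was Pdia4, a disulfide isomerase (2.24 ± 0.21). In late mice 0 of the 17 passed, with 2 at an unadjusted p under 0.05, against 17.3% of all genes. Calr and Canx are among the 12 and were also counted in the list of other ERAD genes.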
